A study of Mus musculus with 11 samples.

Results

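Whole testes of mice in which Nrf1 was deleted in germ cells (Nrf1 cKO) were compared with wild-type (WT) testes, gene by gene, to ask which functions other than germ cell identity were lower or higher. All gene rows of the count table for this pair of genotypes were taken, 30654 genes in 5 of the 11 libraries of the series, and 20433 of them passed the filter on low counts and were tested. The labels give the genotype as Nrf1KO/KO in 3 libraries and as wild type in 2, and they name the source as testes holding spermatogonia and somatic cells, although every title begins with germ cells alone. Per the study's methods, testes were taken at postnatal day 5 (P5) on a C57Bl6/J background. A floxed Nrf1 allele over a null allele was recombined by Ddx4-Cre, a driver active in germ cells from before birth, so somatic cells of the Nrf1 cKO testis keep 1 working allele, and an effect of the allele they lack cannot be told apart from one of the germ cell deletion. The controls were littermates where possible. The other 6 libraries, from Dnmt3C knockout testes (Dnmt3C KO, 3 libraries) and testes lacking both genes (dKO, 3 libraries), were used here only as a second comparison with and without Nrf1. Nothing in the labels says whether a library holds the testes of 1 animal, so p-values measure the spread between libraries.

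NRF1, nuclear respiratory factor 1, is a transcription factor that binds CpG-containing promoter sites, and its binding is blocked by methylation of those CpGs. It is best known for driving nuclear genes of the respiratory chain and of mitochondrial gene expression. It is not related to Nfe2l1, a regulator of proteasome genes that shares the nickname. At P5 the seminiferous tubules hold spermatogonia among dividing Sertoli cells, surrounded by Leydig cells, peritubular muscle, vessels and stroma, and meiosis has not begun.

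The Nrf1 gene itself did not check the labels. Its level in CPM (counts scaled to a common library size) was 56.1, 51.8 and 57.4 in the Nrf1 cKO libraries and 58.0 and 57.0 in the WT libraries. The log2 fold change of Nrf1, Nrf1 cKO over WT, was -0.06 with a standard error of 0.16. The table sums reads over the whole gene and over all cells, so a deletion of some exons need not be visible in it.

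Total counts were between 26063282 and 37442822 per library, and the 2 groups overlapped in depth. Both germ cell and somatic markers were present in every library. The mean log2 CPM of the 15 germ cell identity genes, which include Ddx4, Dazl and Sall4, was 4.17 and 3.81 in WT and 3.30, 1.89 and 2.22 in Nrf1 cKO. The library Nrf1 cKO 1 therefore lay between WT and the other Nrf1 cKO libraries. The difference of the group means was -1.52, with all 3 Nrf1 cKO libraries below both WT libraries, and an exact two-sided permutation test gave p = 0.2, where 3 against 2 libraries cannot give less than 0.1. In bulk tissue, fewer germ cells and less RNA per germ cell cannot be told apart.

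The library WT 2 stood apart in blood and immune genes. Slc4a1, the anion exchanger of red blood cells, was at 30.6 CPM in WT 2 and between 0.691 and 1.30 CPM in the other 4 libraries. The embryonic globin Hbb-y had 636 counts in WT 2 and 2 or 3 counts in each of the others, and all 8 tested red blood cell genes had a log2 fold change below 0, with a median of -0.85. Without WT 2, 1 of the 8 was below 0 and the median was 0.26. The summed level of those 8 genes was 672 and 2125 CPM in WT and 337, 1764 and 308 CPM in Nrf1 cKO. Cd74, the invariant chain of antigen presentation, was at 36.6 CPM in WT 2 and between 4.14 and 8.71 CPM elsewhere.

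**Figure D1:**
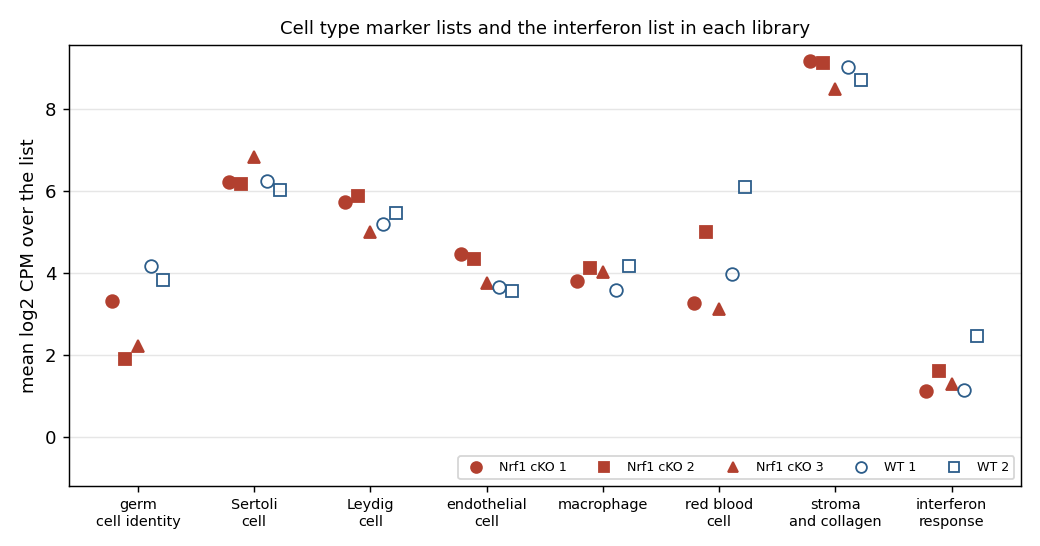
Mean log2 CPM (vertical axis) over the genes of 7 cell type lists and of the interferon list in each of the 5 libraries, with filled red symbols for Nrf1 cKO and open blue symbols for WT. The germ cell identity list runs from 1.89 to 3.30 in Nrf1 cKO and lies at 3.81 and 4.17 in WT, and the red blood cell and interferon lists are highest in WT 2.

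Over all genes, edgeR's quasi-likelihood test with Benjamini-Hochberg adjustment called no gene at an adjusted p under 0.01, that is 0% of 20433, and the smallest adjusted p was 0.395. At an unadjusted p under 0.05, 653 genes (3.2%) were lower and 326 (1.6%) were higher in Nrf1 cKO, together 4.79% of the genes tested. DESeq2's Wald test on the same counts called 24 genes, 0.142% of the 16889 genes to which it gave an adjusted p, all of them lower. Library by library, 2102 genes (10.3%) were lower in every Nrf1 cKO library than in either WT library, and 1899 (9.29%) were higher. The median log2 fold change was -1.24 over the 653 lower genes, 0.61 over the 326 higher genes, and 0.02 over all genes tested. Values are also given without single libraries. Without 1 WT library the other WT library stands alone, the spread comes from the Nrf1 cKO libraries, and WT is assumed to vary as they do.

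The lower genes with the smallest p-values included many germ cell genes. Of the first 20 with a settled symbol and at least 1 CPM, 11 belonged to the germ cell lists used here, 2 to the tubulin and cilium list, and 7 lay on the X chromosome. Their log2 fold changes lay between -0.91 and -2.36. All 20 were lower in every Nrf1 cKO library than in both WT libraries, against 10.3% of all genes, and choosing by smallest p favours such genes. DESeq2 called 18 of these 20.

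Usp26, an X-linked ubiquitin protease of the testis, had the smallest p. It was at 10.1, 6.67 and 7.79 CPM in Nrf1 cKO and at 32.6 and 22.2 CPM in WT, a log2 fold change of -1.74 ± 0.25 (SE). Tex11, an X-linked meiotic recombination gene, was at 6.67, 4.32 and 4.64 CPM against 18.1 and 15.04 CPM, a log2 fold change of -1.67 ± 0.27 (SE). Both genes had an adjusted p of 0.395 by edgeR, and adjusted p-values of 1.73e-05 and 3.02e-05 by DESeq2.

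Dazl, an RNA-binding protein required for germ cell development, was at 44.2, 21.2 and 24.6 CPM in Nrf1 cKO and at 92.8 and 95.8 CPM in WT. The log2 fold change of Dazl was -1.65 ± 0.28 (SE), with an adjusted p of 0.395 by edgeR and of 0.000381 by DESeq2. Nxf2, an X-linked paralog of the mRNA export factor, was at 20.7, 10.2 and 13.5 CPM against 44.0 and 43.6 CPM. In both genes Nrf1 cKO 1 was the highest of its group, as it was for the germ cell list. Rbm44, Rnf17 and Mael, which code for RNA-binding and germ granule proteins, had log2 fold changes of -1.52, -1.33 and -1.30.

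Genes of meiotic chromosomes were also among them. Sycp2, a synaptonemal complex protein, was at 4.88, 4.67 and 5.14 CPM in Nrf1 cKO and at 12.5 and 13.1 CPM in WT and had a log2 fold change of -1.39 ± 0.24 (SE). Stag3, the meiotic cohesin subunit, was at 15.7, 11.8 and 11.8 CPM against 41.0 and 25.4 CPM, a log2 fold change of -1.34 ± 0.24 (SE). Sycp1, the transverse filament of that complex, had a log2 fold change of -1.40 and was among the 24 genes that DESeq2 called, with an adjusted p of 0.00834.

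Several of the lowest p-values belonged to genes that are not classical germ cell markers. Tuba3a and Tuba3b, testis alpha-tubulins, were at 51.9, 46.4 and 35.2 CPM and at 55.6, 27.0 and 18.3 CPM in Nrf1 cKO. In WT they were at 139.5 and 104.6 CPM and at 124.4 and 117.6 CPM, giving log2 fold changes of -1.46 ± 0.21 and -1.85 ± 0.36 (SE). These are near-identical copies, so the share of reads each received is uncertain, and the same holds for Xlr5a, Nlrp4c, Pramef12 and Rps3a3. Mt2, a metal-binding metallothionein, was at 19.6, 13.9 and 16.5 CPM against 42.4 and 36.1 CPM, a log2 fold change of -1.24 ± 0.20 (SE). Hmga1, a chromatin protein of dividing cells, had a log2 fold change of -1.14. Hells, a chromatin remodeller required for DNA methylation at repeats, was at 69.9, 54.7 and 63.4 CPM against 105.1 and 130.9 CPM, a log2 fold change of -0.91 ± 0.18 (SE) and an adjusted p of 0.581 by edgeR and 0.00996 by DESeq2.

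**Figure D2:**
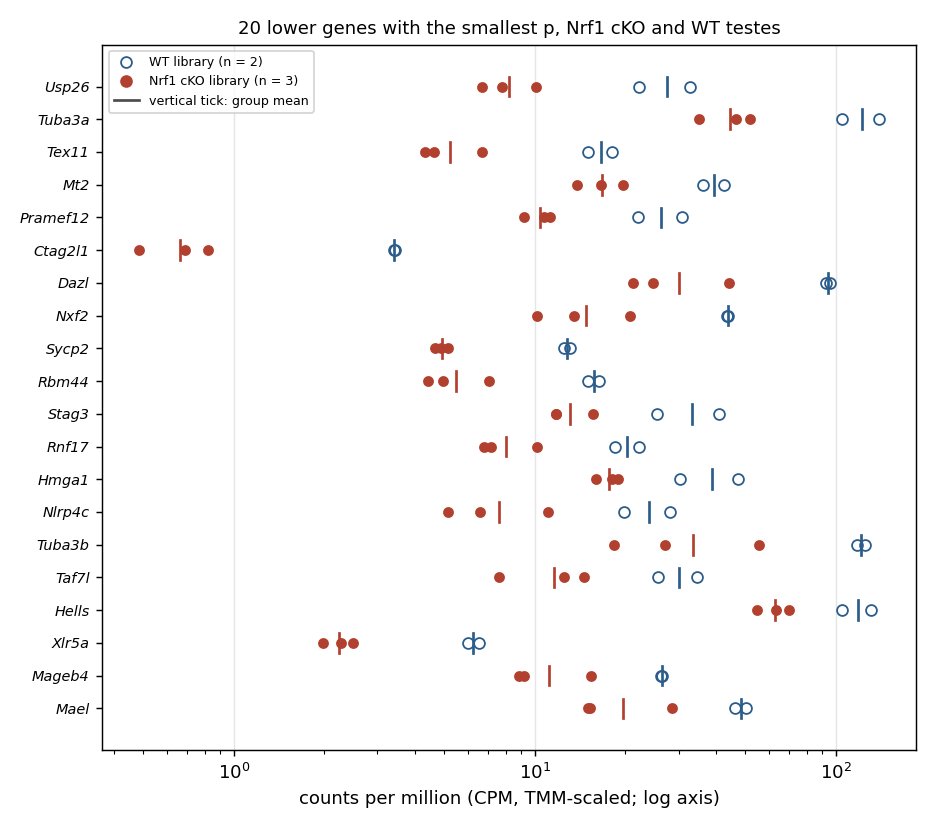
CPM on a log axis of the 20 lower genes with the smallest p, in order of p from the top, in each WT library (open blue) and each Nrf1 cKO library (filled red), with vertical ticks at the group means. In each of the 20 rows the 3 Nrf1 cKO libraries lie to the left of both WT libraries.

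The remaining genes that DESeq2 called were Ctag2l1, Taf7l, Shank1 and 3 with predicted or pseudogene names (Gm6871, 4933427D06Rik and Mageb10-ps). Taf7l is an X-linked germ cell form of a subunit of the general transcription factor TFIID. Ctag2l1, of the cancer-testis antigen group, was at 0.819, 0.486 and 0.691 CPM against 3.43 and 3.40 CPM.

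The promoters of the lower genes were searched for the core of the NRF1 motif, because NRF1 acts at promoters. The letters CGCATGCG, which read the same on both strands, were looked for in the 250 bases before each RefSeq start (GRCm38.p6), for the 13058 tested genes whose symbol has a promoter in that table. They were present in 3.19% of them, in 3.15% of the 413 lower genes and in 0.858% of the 233 higher genes that have an entry. Among the 20 lower genes, 16 have an entry and only Tuba3b holds the letters. With the looser letters CGCANGCG on either strand, which include the first motif, the shares were 14.1% of all genes, 11.9% of the lower and 6.44% of the higher genes. Among the 20 lower genes, Stag3 also held the looser form, at 2 places. The promoters of Tuba3b and Stag3 are printed because they are the ones among those 20 that hold either form. The windows are chr6:145615713-145615962 for Tuba3b and chr5:138280259-138280508 for Stag3, both on the plus strand of GRCm38, written 5′ to 3′ up to the base before the start, with the motif in capitals.
Tuba3b: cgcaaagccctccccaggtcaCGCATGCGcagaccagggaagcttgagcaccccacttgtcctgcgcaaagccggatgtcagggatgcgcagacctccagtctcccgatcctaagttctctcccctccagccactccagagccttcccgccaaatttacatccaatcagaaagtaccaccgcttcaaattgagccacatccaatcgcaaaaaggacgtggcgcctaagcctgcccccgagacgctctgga
Stag3: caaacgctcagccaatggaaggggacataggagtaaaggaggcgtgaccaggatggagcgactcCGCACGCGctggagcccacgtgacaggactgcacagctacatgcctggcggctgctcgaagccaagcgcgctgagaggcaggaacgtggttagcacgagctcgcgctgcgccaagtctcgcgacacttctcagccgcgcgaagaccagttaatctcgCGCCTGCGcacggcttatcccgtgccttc
Over all 13058 genes, those with CGCATGCG had a median log2 fold change of -0.0027 and those without it of 0.037, and the share below 0 was 50.2% and 44.4%. In the germ cell lists CGCATGCG was present in 4.55% of 88 promoters, those of Mov10l1, Tex19.1, Syce1 and Hormad1, and the looser form in 21.6%. Of the germ cell genes with the looser form 84.2% were below 0, and of those without it 95.7%. The looser form was in 58.8% of the 17 promoters of the piRNA list, where the median number of CpGs per promoter was 19 against 15 over all genes, and in 26.1% of the 23 of the meiotic list, where that number was 12. CGCATGCG was in 3 of those 23. A match to these letters is a description of the sequence, and binding at these promoters was not measured here.

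Most genes of the germ cell lists had values below 0, and the lists differed in how many genes passed the test. Of the 15 germ cell identity genes, all had a log2 fold change below 0 and 13 were lower at an unadjusted p under 0.05, against 3.2% of all genes. Their median was -1.30. Of 16 X-linked germ cell genes, all were below 0, 12 were lower at that p, and the median was -1.52, the lowest of the 40 lists. In the piRNA and germ granule list, which holds the small-RNA defence against transposons, 21 of 23 genes were below 0 and 12 were lower, with a median of -1.02. Without Nrf1 cKO 1 that median was -1.60, and without Nrf1 cKO 2 it was -0.62. Tdrd12, of this pathway, was at 3.73, 0.459 and 0.806 CPM in Nrf1 cKO and at 7.55 and 7.51 CPM in WT, a log2 fold change of -2.17 ± 0.68 (SE). Of 25 meiotic chromosome genes, 24 were below 0 and 12 were lower, with a median of -1.11. Of 17 germline RNA-binding and translation genes, all were below 0 and 8 were lower, with a median of -0.91. Leaving out 1 library at a time left between 7 and 15 identity genes, 6 and 15 X-linked genes, 6 and 18 piRNA genes, 6 and 17 meiotic genes and 2 and 11 RNA-binding genes lower at that p. The highest of each was without Nrf1 cKO 1, and the lowest was without WT 2 for the meiotic genes and without WT 1 for the other 4 lists.

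Lower genes were found in the lists of both later and earlier spermatogonia. In the differentiating list, 9 of 12 genes were lower at an unadjusted p under 0.05, against 3.2% of all genes, with a median of -1.36, and there were 3 without WT 1 and 6 without Nrf1 cKO 2. Stra8, the retinoic acid-induced gene at the gate of meiosis, was at 2.52, 3.35 and 8.67 CPM in Nrf1 cKO and at 15.7 and 12.0 CPM in WT, and Sohlh1 and Sohlh2, transcription factors of this step, had log2 fold changes of -1.33 and -1.50. Kit and Rarg were the 2 exceptions above 0, with 0.12 and 0.21, and both are also used by somatic cells of the testis. In the undifferentiated list, 6 of 20 genes were lower, 17 were below 0, and the median was -0.80. Lin28a, Zbtb16, Foxc2, Pou5f1, Gfra1 and Sall4 were the 6, with log2 fold changes between -0.96 and -1.46. Without Nrf1 cKO 1 there were 12. Without WT 1 none of the 20 had an unadjusted p under 0.05 and the median was -0.38, and without Nrf1 cKO 3 the median was -0.48. The 2 spermatogonial lists were not tested against each other.

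**Figure D3:**
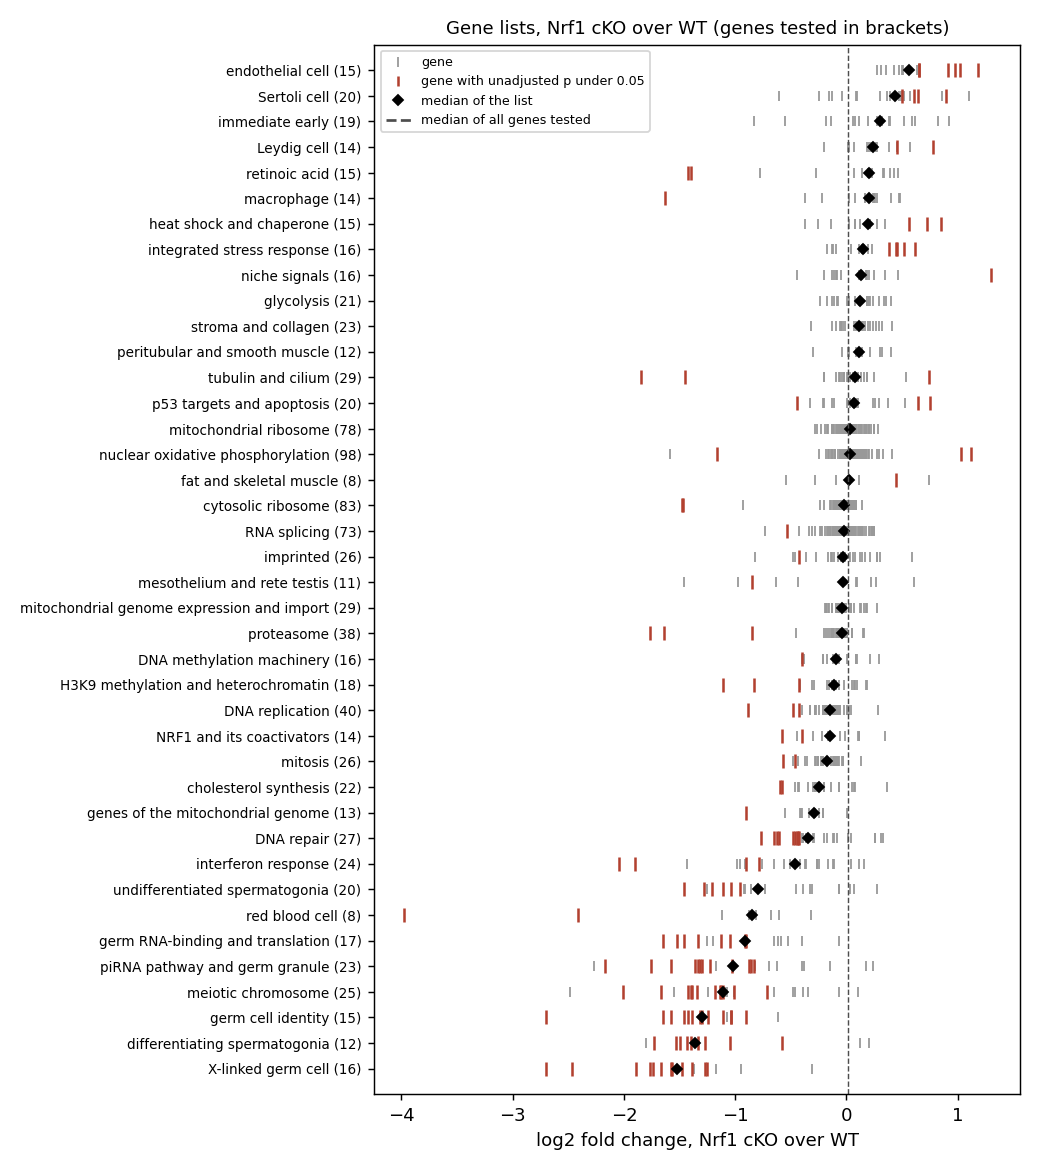
Log2 fold change, Nrf1 cKO over WT (horizontal axis), of every tested gene in 40 gene lists ordered by their median (diamond), with red ticks for genes at an unadjusted p under 0.05 and a dashed line at the median of all genes. The 7 germ cell lists have medians between -1.52 and -0.80, and most other lists lie within 0.5 of the dashed line.

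Germ cell genes were next compared with the germ cell identity genes themselves. The libraries were rescaled so that the identity list had the same mean level in each, and the 93 other tested genes of the germ cell lists were read on that scale. At an unadjusted p under 0.05, 2 of the 93 were lower than the identity genes, Syce1 and Tktl1, with scaled log2 fold changes of -1.69 and -1.55, and 10 were higher. On this scale 0.0392% of all genes were lower and 63.6% were higher, since somatic genes shift up with it. Scaled log2 fold changes of these 10 lay between 1.47 and 1.83, where the median over all genes was 1.63. Unscaled, they lay between -0.14 and 0.21. The 10 were Kit, Rarg, Foxo1, Cdh1, Tex19.2, Etv5, Tdrd3, Tdrd7, Nkapl and Prdm9. These counts did not hold without single libraries: without Nrf1 cKO 1, 5 genes were lower and 30 higher, and without any one of the other 4 libraries none was lower and between 0 and 2 were higher. None of the 93 had an adjusted p under 0.01 by edgeR, and the smallest was 0.0593.

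The X chromosome held more of the lower genes than its size. Of 837 tested genes on it, 80 (9.56%) were lower at an unadjusted p under 0.05, and 6 (0.717%) were higher. X-linked genes made up 12.3% of the lower genes and 4.1% of the genes tested, while no autosome had more than 4.18% of its genes lower. The median over the whole X chromosome was -0.07. Beside the listed genes, these included Luzp4, Scml2, Tex13b, Taf9b and Fthl17f, of which Scml2 is a Polycomb-related protein of male germ cells. On the Y chromosome 5 of 16 tested genes were lower, among them Usp9y, Uba1y and Zfy1. By transcript class, 486 of the 653 lower genes and 306 of the 326 higher genes were protein coding in GENCODE M21.

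Few of the respiratory chain and mitochondrial genes for which NRF1 is best known passed the test. Of 98 tested nuclear genes of oxidative phosphorylation, 1 was lower and 2 were higher at an unadjusted p under 0.05, against 3.2% and 1.6% of all genes, and the median log2 fold change was 0.03. Of 78 mitochondrial ribosome genes, none was lower and none higher, all values lay between -0.28 and 0.28, and edgeR's smallest adjusted p over all genes was 0.395. Of 29 genes of mitochondrial gene expression and import, none passed either, with a median of -0.04. In the oxidative phosphorylation list the direction rested on the WT libraries: 37 genes were below 0 with all libraries, 77 without WT 1 and 2 without WT 2. In the mitochondrial ribosome list 33 genes were below 0 with all libraries, 56 without WT 1 and 6 without WT 2. The motif CGCATGCG was found in 11.7% of the 77 promoters of this list and in 10.1% of the 69 of the mitochondrial ribosome list. The looser form was in 28.6% and 24.6% of them. Somatic cells use these genes too, so whole-testis counts need not show a germ cell change in them.

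The lower members of these broadly expressed lists included germ cell versions of the complex. Cox7b2, a testis form of a cytochrome c oxidase subunit, was at 1.70, 1.19 and 0.806 CPM in Nrf1 cKO and at 2.69 and 2.84 CPM in WT, a log2 fold change of -1.16 ± 0.41 (SE). Of 83 cytosolic ribosome genes 2 were lower, against 3.2% of all genes. Both were retrogene copies used in the male germline, Rpl10l with 9.25, 4.86 and 3.95 CPM against 15.7 and 17.9 CPM and Rpl39l with 10.5, 4.24 and 2.49 CPM against 16.3 and 15.6 CPM. Their log2 fold changes were -1.48 ± 0.34 and -1.47 ± 0.47 (SE), while the median of the list was -0.02, and 1 of the 83 was lower without WT 1 and 1 without WT 2. Of 38 proteasome genes 3 were lower, against 3.2% of all genes. Psma8, the subunit of the spermatocyte proteasome, had a log2 fold change of -0.85, with 3.34, 1.97 and 2.03 CPM against 3.38 and 5.47 CPM. The other 2, Psmb8 and Psmb9 of the immunoproteasome, rested on WT 2, as Psmb8 was at 22.8 CPM there and between 3.21 and 4.68 CPM in the other libraries, and without WT 2 their log2 fold changes were 0.40 and 0.32 and none of the 38 was lower. Of the proteasome genes 32 were below 0 with all libraries and 5 without WT 2, and of the cytosolic ribosome genes 50 with all, 81 without WT 1 and 5 without WT 2.

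The 2 higher genes of the oxidative phosphorylation list were Cox4i2 and Ndufa4l2, forms of respiratory chain subunits known from low-oxygen and vessel-wall cells. Cox4i2 was at 2.79, 3.81 and 2.07 CPM in Nrf1 cKO and at 1.43 and 1.24 CPM in WT. Ndufa4l2 was at 4.16, 7.10 and 3.68 CPM against 2.44 and 2.45 CPM. Their log2 fold changes were 1.12 ± 0.40 and 1.03 ± 0.37 (SE). No gene of the list was lower or higher at that p without Nrf1 cKO 2, without WT 1 or without WT 2.

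Genes encoded by mitochondrial DNA had a median log2 fold change of -0.29, and 12 of 13 were below 0. Only mt-Nd6 was lower at an unadjusted p under 0.05, against 3.2% of all genes, with 7.71, 16.2 and 12.1 CPM against 21.6 and 23.2 CPM. The summed level of the 13 genes was 21980 and 38480 CPM in the WT libraries and between 23010 and 27800 CPM in Nrf1 cKO, so WT enclosed Nrf1 cKO. Without WT 2 the median was 0.23, and without WT 1 it was -0.67.

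Outside the germ cell lists, lower genes were also found in the DNA repair list. Of 27 genes, 21 were below 0, 9 were lower and none was higher at an unadjusted p under 0.05, against 3.2% lower and 1.6% higher of all genes, and the median was -0.35. Atm, the kinase that signals DNA breaks, was at 51.8, 40.9 and 55.7 CPM in Nrf1 cKO and at 85.7 and 82.6 CPM in WT, a log2 fold change of -0.77 ± 0.18 (SE). Fancd2, of the crosslink repair pathway, was at 33.7, 24.3 and 27.7 CPM against 45.7 and 44.1 CPM, and Brca2, of homologous recombination, was at 42.2, 30.4 and 41.5 CPM against 60.5 and 56.5 CPM. Their log2 fold changes were -0.65 ± 0.18 and -0.62 ± 0.19 (SE). Palb2, Blm, Fanci, Exo1, Brca1 and Atr were the other 6, between -0.43 and -0.61. The edgeR adjusted p of Atm, the smallest of the 27, was 0.692, and leaving out 1 library at a time left between 4 and 9 genes lower. The lowest count was without Nrf1 cKO 2, and it was 5 without Nrf1 cKO 3 or WT 2. The germ cell identity level was lower in the same 3 libraries, and its part in this result was not tested.

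Most values of DNA replication and mitosis genes were below 0, and 3 and 2 of them were lower, against 3.2% of all genes. In the replication list 35 of 40 genes were below 0, with a median of -0.15, and Orc1, Mcm10 and Cdc45 were lower at an unadjusted p under 0.05. Orc1, the largest subunit of the origin recognition complex, was at 12.7, 11.1 and 9.63 CPM against 20.2 and 20.8 CPM, a log2 fold change of -0.88 ± 0.21 (SE). In the mitosis list 25 of 26 genes were below 0 with a median of -0.17, and Cenpf and Bub1, of the kinetochore, were lower with log2 fold changes of -0.57 and -0.46. Without Nrf1 cKO 3 the medians of the 2 lists were -0.06 and -0.08 with 1 gene lower in each, and without WT 2 they were -0.08 and -0.13 with 1 and 0 genes lower. The mitosis list also had none lower without Nrf1 cKO 2. Without Nrf1 cKO 1 there were 5 and 6 lower genes, with medians of -0.22 and -0.27, and without WT 1 there were 4 in each. In dKO over Dnmt3C KO, the second comparison, 24 of the 40 replication genes and 5 of the 26 mitosis genes were below 0, with medians of -0.016 and 0.13. In the cholesterol synthesis list 18 of 22 genes were below 0 and Insig1 and Hsd17b7 were lower, with a median of -0.25. Without WT 2 the median was -0.05 and none was lower, without WT 1 it was -0.43 and 11 were lower, and without Nrf1 cKO 2 none was lower.

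In the H3K9 methylation and heterochromatin list 3 of 18 genes were lower, against 3.2% of all genes, Zfp42, Atf7ip2 and Mphosph8, with log2 fold changes of -1.11, -0.83 and -0.43, and none was lower without WT 2. In the DNA methylation list Tet2, which oxidises methylcytosine, was the only 1 of 16, with -0.40. Among NRF1's partners and regulators, 2 of 14 were lower, Ccnd1 with -0.58 and Hcfc2 with -0.40. The retinoic acid list had Crabp1 and Rarb lower, at -1.40 and -1.42, while its median was 0.21. There was 1 lower gene without Nrf1 cKO 2 and 1 without WT 2, and without WT 2 the median was -0.01. RNA splicing had 1 lower gene of 73, Prpf39 with -0.54, and the imprinted list 1 of 26, Zim1 with -0.43. Without Nrf1 cKO 2 none was lower in the DNA methylation, NRF1 partner and splicing lists. The NRF1 partner list also had none lower without WT 1, the splicing list none without either WT library, and the imprinted list none unless Nrf1 cKO 2 was the library left out.

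The values of the interferon list rested on WT 2. Of 24 genes 21 were below 0 and 4 were lower at an unadjusted p under 0.05, against 3.2% of all genes, with a median of -0.46. Without WT 1 all 24 were below 0, 10 were lower and the median was -1.07, and without WT 2 none was lower, 8 were below 0 and the median was 0.24. Ifit1, induced by interferon, was at 2.10 CPM in WT 2 and between 0.0767 and 0.432 CPM in the other libraries.

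Few of the higher genes with the smallest p-values were in the lists, so examples are given gene by gene, with vessel genes first. Of the first 20 with a settled symbol and at least 1 CPM, 2 belonged to the lists, none was X-linked, and their log2 fold changes lay between 0.55 and 1.96. All 20 were above both WT libraries in every Nrf1 cKO library, against 9.29% of all genes, and choosing by smallest p favours such genes. Crip2, a LIM protein of heart and vessels, was at 22.9, 24.6 and 26.0 CPM in Nrf1 cKO and at 14.5 and 9.07 CPM in WT, a log2 fold change of 1.06 ± 0.24 (SE). It had the smallest p of the higher genes and an adjusted p of 0.619 by edgeR and 0.0160 by DESeq2. Mmrn2, an endothelial matrix protein, was at 11.2, 6.64 and 5.68 CPM against 2.85 and 2.39 CPM, and Gja4, a connexin of arterial endothelium, was at 5.70, 5.89 and 4.53 CPM against 2.39 and 2.25 CPM. Their log2 fold changes were 1.58 ± 0.37 and 1.21 ± 0.31 (SE).

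Dll4, the Notch ligand of arterial endothelium, was at 6.55, 8.37 and 4.07 CPM in Nrf1 cKO and at 2.83 and 2.33 CPM in WT, and Nrarp, a Notch target that limits the pathway, was at 17.1, 14.2 and 12.8 CPM against 8.92 and 7.62 CPM. Sox7, an endothelial transcription factor, had the largest fold of the 20 and a wide spread, at 7.49, 4.27 and 1.84 CPM against 1.10 and 1.24 CPM. Epas1, the hypoxia-inducible factor of endothelium, had a log2 fold change of 0.78 ± 0.21 (SE). The 20 also held genes of other kinds, such as Apoe, a lipid carrier, at 268, 332 and 230.4 CPM against 186 and 141 CPM. Aldh1b1, a mitochondrial aldehyde dehydrogenase, and Tubb3, a beta-tubulin with a log2 fold change of 0.74, were others. Sigirr and Nos2 had log2 fold changes of 1.84 and 1.79. The rest of the 20 were Fam181b, Pcp4l1, Cachd1, Tppp3, Klhdc8a, Prrg2, Scrn2 and Mmp15.

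**Figure D4:**
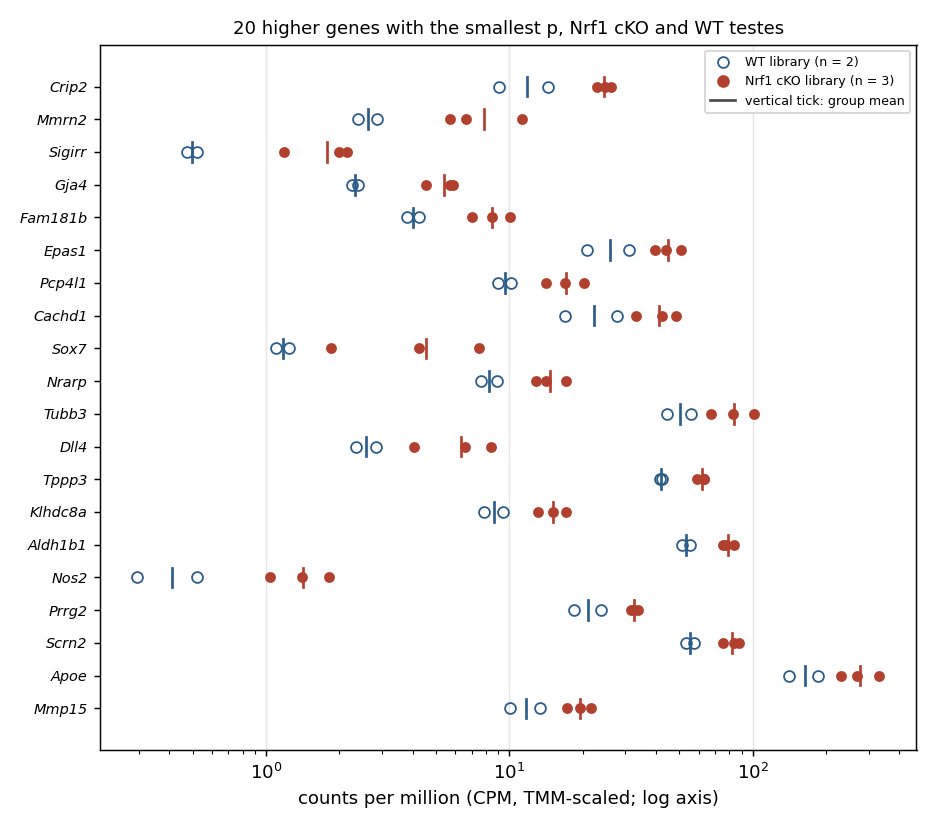
CPM on a log axis of the 20 higher genes with the smallest p, in order of p from the top, in each WT library (open blue) and each Nrf1 cKO library (filled red), with vertical ticks at the group means. All 3 Nrf1 cKO libraries lie to the right of both WT libraries in each row, and Sox7 has the widest spread in Nrf1 cKO, from 1.84 to 7.49 CPM.

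All 15 genes of the endothelial marker list had a log2 fold change above 0, 6 were higher at an unadjusted p under 0.05 against 1.6% of all genes, and the median was 0.56. The 6 were Esam, Tie1, Sox18, Vwf, Cldn5 and Tek. Esam, a junction protein, was at 17.7, 21.9 and 11.9 CPM in Nrf1 cKO and at 8.64 and 9.66 CPM in WT, a log2 fold change of 0.91 ± 0.28 (SE). The mean log2 CPM of the list was 4.46, 4.34 and 3.76 in Nrf1 cKO and 3.65 and 3.545 in WT. The summed level of the 15 genes, which the most abundant ones set, was 663 and 657 CPM in Nrf1 cKO 1 and 2, but 417 CPM in Nrf1 cKO 3 against 442 and 421.5 CPM in WT. Without Nrf1 cKO 3 the list's median was 0.75 with 10 genes higher. There were 3 higher genes without Nrf1 cKO 1, without Nrf1 cKO 2 or without WT 1, and 1 without WT 2, with medians between 0.42 and 0.71. The group means of that mean log2 CPM differed by 0.59, with all 3 Nrf1 cKO libraries above both WT libraries, with p = 0.2 in an exact two-sided permutation test.

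The somatic cells of the tubule and interstitium were also above WT in part of their genes. Of 20 Sertoli cell genes 15 were above 0, 4 were higher, against 1.6% of all genes, and the median was 0.43. Amh, the hormone that removes the Müllerian duct, was at 568, 492 and 542 CPM in Nrf1 cKO and at 434 and 251 CPM in WT, a log2 fold change of 0.64 ± 0.26 (SE), and Inha and Inhbb, inhibin subunits, had values of 0.50 and 0.61. The summed Sertoli level was 5986, 6186 and 9031 CPM against 5329 and 4970 CPM, and without Nrf1 cKO 3 the median was 0.09 with 1 gene higher. There were 6 higher genes without Nrf1 cKO 1 and 1 without WT 2. Of 14 Leydig cell genes 13 were above 0 and Insl3 and Fdxr were higher, with 0.78 and 0.45. Without Nrf1 cKO 2 the list had 8 genes above 0, none higher and a median of 0.04 against 0.24 with all libraries. None was higher without WT 1, 1 without Nrf1 cKO 1 and 5 without Nrf1 cKO 3. None of 12 peritubular and smooth muscle genes and none of 23 stroma and collagen genes had an unadjusted p under 0.05. In CPM, a lower share of 1 cell type raises the shares of the others, and the part of this in the higher genes was not tested.

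Stress genes were higher in small numbers. In the integrated stress response list 5 of 16 genes were higher, against 1.6% of all genes, Herpud1, Atf5, Slc3a2, Xbp1 and Ddit4, with log2 fold changes between 0.38 and 0.61 and a list median of 0.15. Atf5, a transcription factor of this response, was at 74.7, 97.0 and 68.1 CPM against 62.1 and 49.5 CPM. Without Nrf1 cKO 2 none of the list was higher at that p, and there was 1 such gene without Nrf1 cKO 3 and 1 without WT 2. In the heat shock list 3 of 15 were higher, the near-identical pair Hspa1a and Hspa1b with 0.85 and 0.72 and Hspb1 with 0.56, and none without WT 2. Of 20 p53 target and apoptosis genes, Cdkn1a, a cell cycle inhibitor, and Bbc3, which promotes apoptosis, were higher with 0.75 and 0.64, Mdm2, the p53 antagonist, was lower with -0.45, and the median was 0.07. None of the 20 passed without Nrf1 cKO 2 or without WT 2. No gene of the glycolysis list passed, and its median was 0.13.

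The Dnmt3C KO background gave a second look at the same genes in libraries that the first comparison did not use. For dKO over Dnmt3C KO, 4.23% of 19932 tested genes were lower and 3.1% were higher at an unadjusted p under 0.05, and none had an adjusted p under 0.01 by edgeR. Of the 653 genes lower in Nrf1 cKO, 627 were tested there. Of these, 71.6% had a log2 fold change below 0, against 47.9% of all genes tested in both, 112 (17.9%) were lower at an unadjusted p under 0.05 and 3 were higher. Of the 316 tested higher genes, 35.4% were below 0, 14 (4.43%) were higher and 8 were lower. All 20 named lower genes were below 0 and 10 of them were lower at that p, with a median of -0.80 against -1.42 in the first comparison. Of the 20 named higher genes 12 were above 0 and 3 were higher, with a median of 0.15 against 0.83.

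Tuba3a had the smallest p of the 20 in the second background, with 69.1, 72.6 and 49.5 CPM in dKO and 138, 122 and 138 CPM in Dnmt3C KO, a log2 fold change of -1.06 ± 0.15 (SE). Mt2 was at 53.05, 25.4 and 16.3 CPM against 116, 58.7 and 83.3 CPM, a log2 fold change of -1.44 ± 0.39 (SE). Dazl was at 120.3, 68.2 and 33.3 CPM against 177, 96.9 and 107 CPM, so the groups overlapped. The germline copies Cox7b2, Rpl10l, Rpl39l and Psma8 had log2 fold changes of -1.66, -0.96, -1.76 and -1.05. All dKO libraries were below all Dnmt3C KO libraries for 6 of the 20 lower genes, against 7.2% of all genes tested there.

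Other functions had different values there. Hells was at 108, 106.5 and 98.1 CPM in dKO and at 121, 99.2 and 109.5 CPM in Dnmt3C KO, a log2 fold change of -0.08 ± 0.11 (SE). Of the 27 DNA repair genes 11 were below 0, none was lower and Brca2 was higher, with a median of 0.03. Of the 15 endothelial genes 11 were below 0 and none passed, with a median of -0.13. In the nuclear oxidative phosphorylation list, 40 of 98 genes were lower in dKO, against 4.23% of all genes in that comparison, and the median was -0.29. Of 78 mitochondrial ribosome genes 23 were lower there, of 38 proteasome genes 10 and of 83 cytosolic ribosome genes 18. Genes of these lists moved together, with 92, 69, 37 and 83 of them below 0 in that order. The second comparison was not repeated without single libraries, so whether this shift rests on 1 library was not tested. A test of the difference between the 2 effects over all 11 libraries, as an interaction in edgeR, called no gene at an adjusted p under 0.05. For Hells the interaction in log2 units was 0.84 and for Crip2 it was -1.17, and edgeR gave both an adjusted p of 0.895.

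**Figure D5:**
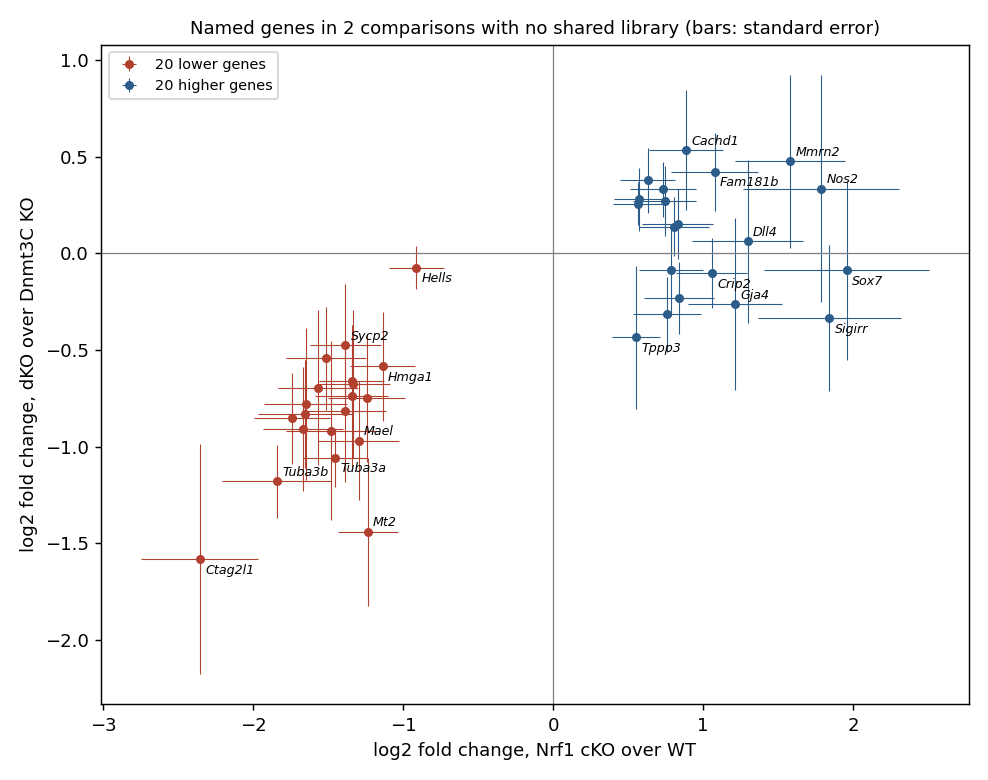
Log2 fold change of the 20 lower (red) and 20 higher (blue) named genes for Nrf1 cKO over WT (horizontal axis) and for dKO over Dnmt3C KO (vertical axis), with standard errors as bars and some genes named. All 20 lower genes lie below 0 on the vertical axis, with Hells nearest to it at -0.08, while 12 of the 20 higher genes lie above 0.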

How the data were processed

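Poly-A RNA of whole P5 testes was sequenced with a stranded kit. Per the methods and the submitters' processing notes, the authors aligned reads with STAR 2.7.3a to GRCm38 (GENCODE M25), left out 1 library of each genotype for low RNA quality, counted reads on genes and transposable element (TE) subfamilies with TEtranscripts in multi-mapping mode, and deposited raw counts per pair of genotypes. The table also holds the authors' DESeq2 1.44.0 comparison (mean, fold change, error, statistic and p-values), which was not used. The table for the pair holds 30654 genes and 1066 TE subfamilies.

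The main test was run on these counts with edgeR 4.0.16 (R 4.3.3). Features were filtered with filterByExpr and scaled by TMM, the quasi-likelihood model was fitted to the 3 Nrf1 cKO and 2 WT libraries, and p-values of 20433 genes and 863 TE subfamilies were adjusted in 1 family by Benjamini-Hochberg, with a threshold of 0.01. The standard error of a log2 fold change was its size divided by the root of F. Log2 CPM were computed after TMM scaling and a prior count of 1. DESeq2 1.42.0 was an alternative, as were its size factors, no filter, leaving out each library, the replicate number as a block, gene-only library sizes, all 4 genotypes in one fit, a threshold of 0.05, and the looser motif. Python 3.11.15 gave the exact permutation test and the motif search. The test was tested on simulated data. Every pair of libraries differed beyond sampling noise, with a chi-square per degree of freedom of 29.4 or more over genes. Positions and classes came from GENCODE M21, and promoters from RefSeq. Counts are of reads, not molecules, so depth sets counting error only.

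Named genes were Nrf1, the 20 lower and 20 higher genes with the smallest p (at least 1 CPM in a group, no predicted symbol), all genes called by DESeq2, and list members at an unadjusted p under 0.05, of which the text gives examples and counts. The tables of named genes leave out 1 such list member. The members, the 40 lists and these rules were chosen with earlier results of these data known. TE subfamilies were tested but are not described here.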

Additional observations from a re-analysis of the deposited data

How the results depend on the processing

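The count of called genes depended on the processing. Against 0 lower and 0 higher genes, DESeq2's Wald test called 24 lower, no filter on low counts called 63 lower and 5 higher, and the fit with a replicate block called 65 lower and 16 higher. Leaving out 1 library gave between 0 and 25 lower, with 25 without Nrf1 cKO 1 and 4 without WT 1, and 0 higher. The block left 1 residual degree of freedom and removed Nrf1 cKO 3 from the comparison. The labels do not say whether equal replicate numbers mark a pair. Deviations of same-numbered libraries from their group means correlated at -0.14 for replicate 1 and 0.15 for replicate 2. With 2 WT libraries these values are not independent and cannot decide on pairing. At an unadjusted p under 0.05, the 653 lower genes became 998 with no filter and between 389 and 949 without 1 library. The 326 higher genes became 764 with all 4 genotypes in one fit, 590 with no filter, 495 with the replicate block and between 150 and 979 without 1 library (150 without WT 2, 182 without Nrf1 cKO 2 and 979 without WT 1). On the scale of the germ cell identity genes, between 0 and 5 genes were lower and between 0 and 30 higher without 1 library, the highest without Nrf1 cKO 1. The difference of the identity score stayed between -1.93 and -1.23. The log2 fold changes of Psmb8, Psmb9 and Cd74 turned to 0.40, 0.32 and 0.69 without WT 2, and were -2.45, -2.58 and -2.47 without WT 1. The other 1702 of 1705 alternative values of the 155 named genes kept their direction. Most of these genes were chosen by a small p in the same libraries, which makes a kept direction likely beforehand. Except where an alternative's own construction shows it, the cause of these differences was not tested. Depth did not separate the groups, and 2 WT libraries limit the precision of every fold change.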

Other observations

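Gene families that stood out among the lower genes were counted after their values were seen, so the counts are a description only. At an unadjusted p under 0.05 in edgeR, 3.2% of all genes were lower and 1.6% higher. Of 6 tested Fthl17 genes, ferritin-like genes of the X chromosome, 5 were lower, with a median log2 fold change of -1.74 over the family. Of 15 Xlr and related genes 5 were lower, with a median of -1.19, of 15 Rhox homeobox genes 4, with a median of -1.04, and of 5 Pramef and Pramel genes 3, with a median of -1.28. Both tested Nlrp4 genes, Nlrp4c and Nlrp4f, were lower, with a median of -1.80. Of 22 Mage genes 3 were lower, with a median of -0.77. None of these families had a higher gene at that p. Their members are close copies of each other, so reads may be divided among them and they are not separate measurements. Of 394 tested Zfp zinc finger genes, 12 (3.05%) were lower and 3 (0.761%) higher, with a median of -0.06, so neither share was above that of all genes.

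Rows without a settled annotation were counted in the same way. Of 500 rows that GENCODE classes as TEC, transcripts awaiting experimental support, 52 were lower and 1 was higher, and of 645 lincRNA genes 33 were lower and 3 higher. Among genes with predicted or clone-based names, 181 of 4578 (3.95%) were lower and 27 (0.59%) higher, against 3.2% and 1.6% of all genes.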
